A study of Sinohyriopsis cumingii with 10 samples.

Results

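The first-day shift in the pearl sac of Sinohyriopsis cumingii (also Hyriopsis cumingii), a pearl mussel of fresh water, was read from 4 of the 10 RNA-seq libraries of a time series after implantation. The later side held the 12 h and the 24 h library, and the earlier side the 2 h and the 6 h library. All libraries, that of 0 h included, are labelled as pearl sac after implantation, from mussels 2 years old with shells of 9 to 10 cm that were kept in tanks and fed algae. The labels name no strain, sex or genotype, and no group that was left without an implant. Each time had 1 library, so the neighbouring times of a side stood in for replicates, and the labels do not say how many mussels were in a library. The spread within a side therefore holds real change between 2 and 6 h or between 12 and 24 h, differences between animals and differences in library making, and these cannot be told apart. The measured features were contigs, assembled pieces of transcripts that carry numbers and no gene names, so tissue markers were not checked and no pathway was counted. Fewer cells of a type and less RNA per cell cannot be told apart in such bulk samples.

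A pearl sac forms when a piece of mantle is grafted into a host mussel and the outer epithelium of the graft spreads into a closed pouch that later lays down nacre. In molluscs the first response to such a wound is known to involve haemocytes, the circulating immune cells, which gather at the graft, take up debris and help to close the wound. The series was titled as a study of immune responses during this process, and the comparison of 12-24 h with 2-6 h asks which transcripts changed within the first day.

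The later side had 20699754 reads at 12 h and 24069268 at 24 h, and the earlier side 22122831 at 2 h and 21700375 at 6 h. All 211674 contigs could be read in these 4 files. Contigs with at least 1 read made up 73.1% at 12 h and 70.3% at 24 h, against 64.2% at 2 h and 63.3% at 6 h, so more contigs were seen in both later libraries although the deepest and the shallowest of the 4 were both on that side. After the filter on low counts 43744 contigs (20.7%) were tested, and these took up 98.3% and 98.6% of all reads at 12 and 24 h and 98.8% and 98.9% at 2 and 6 h.

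The libraries of a side lay closer to each other than to either library of the other side. Spearman's correlation of CPM (reads per 1000000 reads of the library) over the tested contigs, given as a description, was 0.88 between 24 and 12 h and 0.83 between 6 and 2 h. Across sides it was 0.79 for 12 against 2 h, 0.73 for 12 against 6 h, 0.75 for 24 against 2 h and 0.70 for 24 against 6 h. The number of contigs at least 4-fold apart also set the pairs within a side apart from those across sides. It was counted with 1 CPM added to both values and with TMM scaling, which sets the libraries to a common level on the assumption that most contigs did not change. Within a side, 166 contigs (0.379%) were 4-fold apart between 24 and 12 h, and 266 (0.608%) between 6 and 2 h. Across sides the numbers were 619 (1.42%) for 12 against 2 h, 838 (1.92%) for 12 against 6 h, 1254 (2.87%) for 24 against 2 h and 1555 (3.55%) for 24 against 6 h. Every pair across sides thus had more contigs apart than either pair within a side, under TMM and also with total counts, where the pairs across sides had 915 to 2259 and those within a side 193 and 240. The 24 h library was farther than that of 12 h from each of the earlier ones, and 6 h was farther than 2 h from each of the later ones although it is nearer to them in time.

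**Figure D1:**
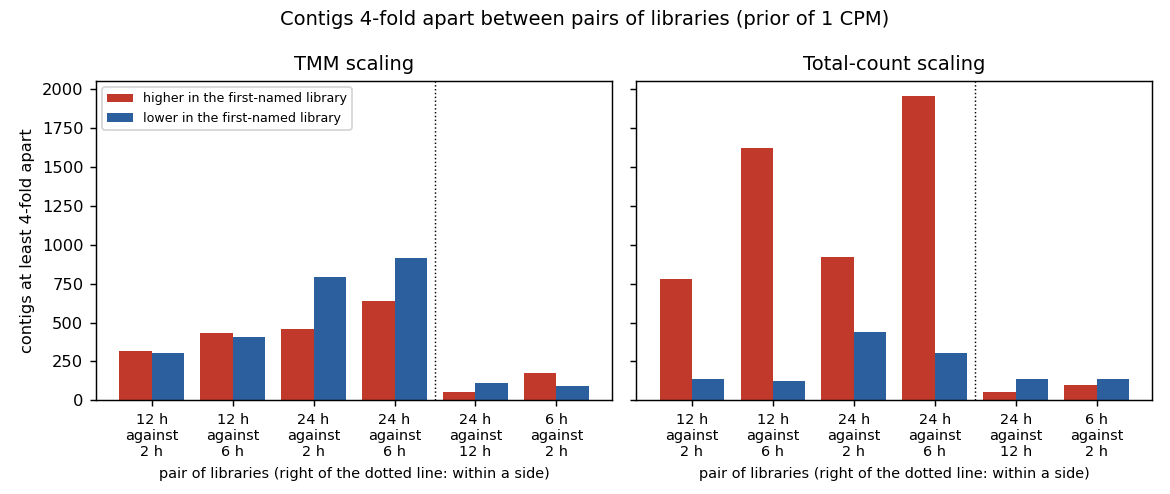
Number of tested contigs at least 4-fold higher (red) or lower (blue) in the first-named library of each pair, with 1 CPM added, under TMM (left panel) and total-count scaling (right panel). The 4 pairs across sides stand left of the dotted line and have 619 to 1555 contigs apart under TMM; the 2 pairs within a side have 166 and 266.

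The direction of the shift depended on the scaling. With total counts the median tested contig was 0.60 higher at 12-24 h than at 2-6 h on the log2 scale, and 70.9% of contigs had a positive fold change. With TMM the median was -0.02 and 49.1% were positive, which the scaling itself brings about. The 2 scalings differed by 0.62 on the log2 scale for the median contig, and the TMM factors behind this were highest at 12 h with 1.26 and lowest at 6 h with 0.723. Contigs in which both later libraries lay above both earlier ones made up 27.5% of those tested with TMM and 47.8% with total counts. Those in which both lay below made up 27.6% and 13.2%.

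edgeR's quasi-likelihood test with TMM and Benjamini-Hochberg adjustment called 338 contigs (0.773% of those tested) higher and 649 (1.48%) lower at 12-24 h, at an adjusted p under 0.05. An unadjusted p under 0.05 was reached by 10190 contigs, 23.3% of those tested. With total counts the same test called 819 contigs (1.87%) higher and 110 (0.251%) lower, so the larger group changed from the contigs that were lower to those that were higher. The calls that both scalings shared were 337 higher contigs (0.77%) and 110 lower ones (0.251%), and no contig was called in opposite directions. Of the contigs called higher by TMM, 1 was lost with total counts, whereas 539 of those called lower were lost. The 539 kept a negative fold change, with a median of -2.91 under TMM and -2.29 with total counts, and a median adjusted p of 0.0698 with total counts in edgeR. In each contig called with TMM the 2 libraries of a side lay wholly apart from those of the other side, under both scalings. Over all tested contigs both later libraries lay above in 27.5% and below in 27.6% with TMM, and in 47.8% and 13.2% with total counts. The calls were made on these same 4 libraries, so their separation describes them and tests nothing.

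The number of calls depended on each of the 4 libraries. With 1 left out, the fit takes the remaining library of that side to vary as the pair on the other side does, with 1 residual degree of freedom. edgeR also pools the spread over contigs, weighted by prior degrees of freedom. These were 7.78 without 2 h and 7.75 without 6 h, and infinite without 12 h or 24 h, where each contig took the pooled spread. The fits thus differ in more than the library left out. Without 2 h edgeR called 0 contigs, with an unadjusted p under 0.05 for 10834, and without 6 h it called 0 higher and 9 lower. Without 12 h it called 866 higher and 1612 lower, and without 24 h 297 higher and 288 lower. With no filter on low counts, and with a minimum mean of 5 CPM, it called 0 contigs, with an unadjusted p under 0.05 for 15538 of 200387 and for 3048 of 10220. The lowest adjusted p in edgeR was 0.614 with no filter and 0.0511 with the minimum of 5 CPM, the latter just above the threshold. DESeq2 called 1151 higher and 1799 lower, and limma-voom 255 and 557. The contigs called with TMM kept the direction of their fold change in each of these fits that tested them. Their sides lay wholly apart in the 4 libraries, which these fits use again, so this describes the calls and tests nothing.

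**Figure D2:**
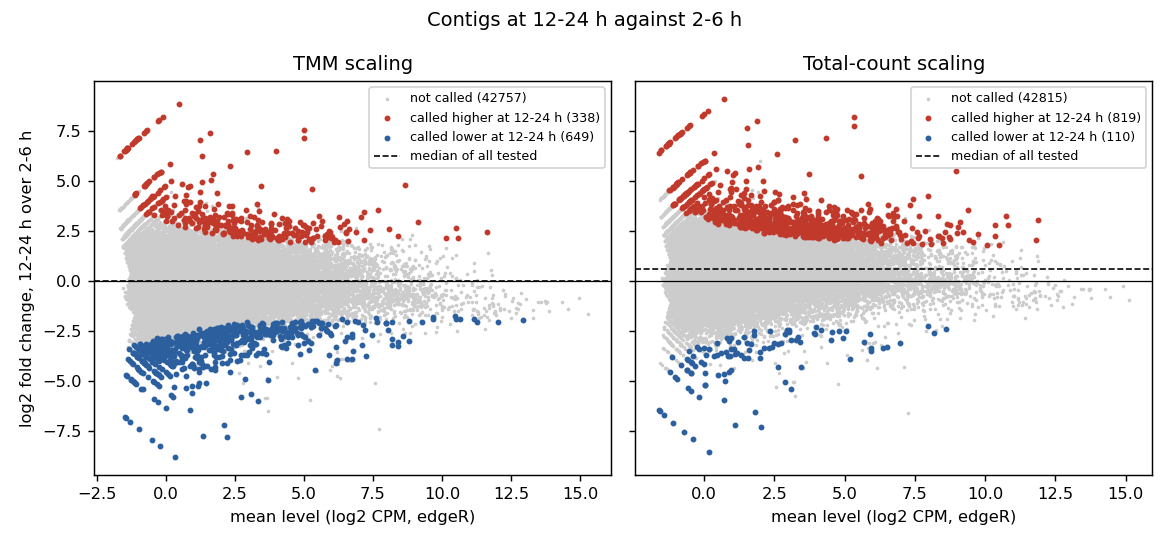
Fitted log2 fold change of 12-24 h over 2-6 h (vertical axis) against mean level in log2 CPM (horizontal axis) for the 43744 tested contigs, under TMM (left panel) and total-count scaling (right panel); called contigs are coloured. The dashed line, the median of all contigs, moves from -0.02 to 0.60 between the panels, and the called contigs change from 338 higher and 649 lower to 819 higher and 110 lower.

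The called contigs changed several-fold. With TMM the fitted log2 fold change of the 338 higher contigs had a median of 2.99 and ran from 1.93 to 8.82, against a median of -0.02 over all tested contigs. For the 649 lower contigs the median was -3.11, between -8.78 and -1.77. Some called contigs had no reads on a side, where a fitted fold has no fixed size. There were 26 higher contigs with 0 reads at both 2 and 6 h and 7 lower ones with 0 reads at both 12 and 24 h. Taken instead as the log2 ratio of the side means under TMM, with such a side set to a floor of 3 reads per library, the medians were 2.87 and -3.11.

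The CPM values here and below, other than those named as TMM, are relative to all reads of a library. The 338 higher contigs had a median of 9.20 CPM at 12 h and 9.60 at 24 h, against 0.881 at 2 h and 0.599 at 6 h. The 649 lower contigs had a median of 0.870 CPM at 12 h and 0.499 at 24 h, against 4.34 at 2 h and 3.55 at 6 h. Within the later side the higher contigs were still more often above at 24 h than at 12 h, in 203 of 338 (60.1%) under TMM, against 46.3% of all tested contigs. The lower contigs were above at 24 h in 151 of 649 (23.3%), so most of them lay lower at 24 h than at 12 h. Within the earlier side neither group leaned as far: 44.1% of the higher and 51.0% of the lower contigs were above at 6 h, against 49.7% of all tested. The values that made the calls are part of these counts, so they describe the groups and test nothing.

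A stricter rule asked that the lower of the 12 and 24 h values be at least 4 times the higher of the 2 and 6 h values, with 1 CPM added and under both scalings, or the reverse. It was met by 33 higher contigs (0.0754%) and 17 lower ones (0.0389%), all of them also called by edgeR under both scalings. Both use the same 4 libraries, so this overlap is no separate support. With 1 library left out fewer values have to pass, and the rule was met by 247 and 134 contigs without 12 h, 96 and 32 without 24 h, 201 and 81 without 2 h, and 134 and 105 without 6 h. The 33 higher contigs were 365 to 10311 bases long. Their CPM had a lowest value, a median and a highest value of 5.36, 33.0 and 759.9 at 12 h and 5.40, 45.0 and 1307 at 24 h. On the earlier side these were 0.0452, 3.71 and 110.0 at 2 h and 0.138, 3.04 and 84.9 at 6 h. That the libraries of a side lie together is set by the rule. The 17 lower contigs were 163 to 3594 bases long. They had 0.0483, 8.41 and 107.0 CPM at 12 h and 0.0831, 4.03 and 139.0 at 24 h, against 6.06, 90.6 and 734.8 at 2 h and 7.42, 51.5 and 559 at 6 h.

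From the contigs that met both rules, the one with the lowest edgeR p and the one with the highest mean CPM were named in each direction. The higher contig with the lowest p, contig221815 (2197 bases), had 11.5 CPM at 12 h and 12.0 at 24 h, against 0.0452 at 2 h and 0.230 at 6 h. These are 238 and 288 reads against 1 and 5. Its mean was 11.7 ± 0.33 CPM at 12-24 h and 0.138 ± 0.131 CPM at 2-6 h (SD, n = 2 neighbouring times each). The later libraries were nearly equal and the earlier ones close to no reads. Its log2 fold change was 5.71 ± 0.76 under TMM (SE, computed from the fold change and its F), with an edgeR adjusted p of 0.0202, and 6.36 ± 0.76 with total counts, with an edgeR adjusted p of 0.0394. In the other libraries it had 0.529 CPM at 0 h, and 16.4 and 6.99 CPM at 48 and 96 h, followed by 11.7, 5.36 and 2.40 CPM at 7, 14 and 30 d, so from 12 h on it was above its 0 h level in every library.

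The higher contig with the most reads, contig108514 (3047 bases), had 643.8 CPM at 12 h and 1307 at 24 h, against 11.8 at 2 h and 31.5 at 6 h. It went up again between 12 and 24 h, and its means were 975 ± 469 CPM at 12-24 h and 21.6 ± 14.0 at 2-6 h (SD, n = 2 neighbouring times each). Its log2 fold change was 4.80 ± 0.66 with an edgeR adjusted p of 0.0203 under TMM, and 5.49 ± 0.64 with an edgeR adjusted p of 0.0394 with total counts. It had 17.9 CPM at 0 h, 640 and 313.0 CPM at 48 and 96 h, and 94.1, 183.9 and 176.5 CPM at 7, 14 and 30 d. The highest of all 10 libraries was 24 h, and the 0 h level lay between those of 2 and 6 h.

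The lower contig with the lowest p, contig238485 (441 bases), had 0.483 CPM at 12 h and 0.291 at 24 h, against 21.8 at 2 h and 10.9 at 6 h, or 10 and 7 reads against 482 and 236. Its means were 0.387 ± 0.136 CPM at 12-24 h and 16.3 ± 7.7 at 2-6 h (SD, n = 2 neighbouring times each). Its log2 fold change was -5.98 ± 0.63 with an edgeR adjusted p of 0.00751 under TMM, and -5.39 ± 0.67 with an edgeR adjusted p of 0.0394 with total counts. At 0 h it had 0.220 CPM, or 5 reads, and 48 h, 96 h and 7 d had 0.139, 0.148 and 0.0923. At 14 d it had 2.29 and at 30 d 1.69. Its high level was thus seen at 2 and 6 h and in none of the other 8 libraries.

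The lower contig with the most reads, contig263404 (3373 bases), had 107.0 CPM at 12 h and 139.0 at 24 h, against 734.8 at 2 h and 559 at 6 h. Its means were 123.0 ± 22.6 CPM at 12-24 h and 647 ± 124 at 2-6 h (SD, n = 2 neighbouring times each). Its log2 fold change was -3.01 ± 0.45 with an edgeR adjusted p of 0.0207 under TMM, and -2.40 ± 0.42 with an edgeR adjusted p of 0.0442 with total counts. At 0 h it had 206.0 CPM, so 2 and 6 h stood above 0 h as well as above 12 and 24 h, and it had 274.8 and 286.6 CPM at 48 and 96 h and 197.1, 87.9 and 433.0 CPM at 7, 14 and 30 d. None of the 4 passed the threshold with no filter, with a minimum mean of 5 CPM or without 2 h, and contig238485 alone passed without 6 h; the adjusted p reached 0.614 in edgeR with no filter.

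**Figure D3:**
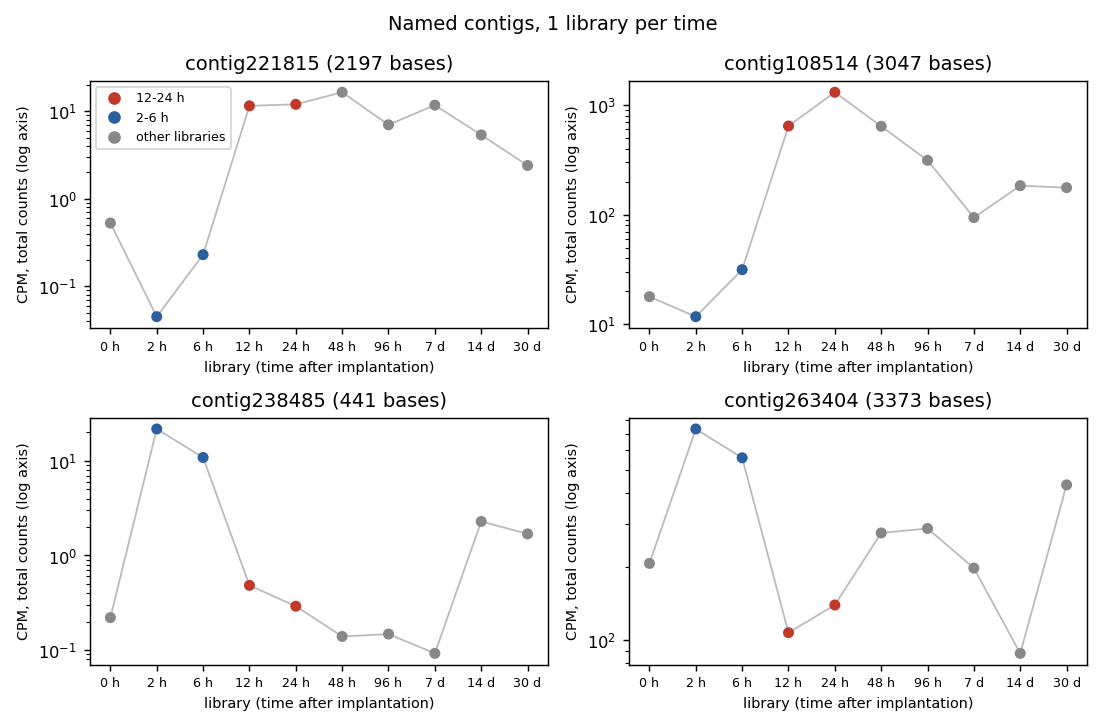
CPM of the 4 named contigs (log axes) in each of the 10 libraries in order of time, with 12 and 24 h in red, 2 and 6 h in blue and the other libraries in grey; there was 1 library per time. contig238485 was at 0.483 and 0.291 CPM at 12 and 24 h and at 21.8 and 10.9 at 2 and 6 h, and contig108514 at 643.8 and 1307 CPM at 12 and 24 h and at 11.8 and 31.5 at 2 and 6 h.

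Reads were also spread differently over the contigs on the 2 sides. Taking the mean CPM of each side with total counts, the gains of all contigs that were higher at 12-24 h added up to 26.2% of a library. By construction the others gave up the same amount. No such sum was made between the libraries of a side, so the part of the spread within a side in it is not known. The loss was concentrated: 29 contigs made up 50% of it, and the 10 with the largest losses 30.1%. The gain was spread over 355 contigs for the same part, with 11.2% in the 10 largest. The 10 with the largest gains took 4.06% of all reads at 12-24 h and 1.14% at 2-6 h, and in all 10 both later libraries lay above both earlier ones. The 10 with the largest losses took 12.5% at 12-24 h and 20.4% at 2-6 h, and in 8 of them both later libraries lay below both earlier ones. With total counts both later libraries lay above both earlier ones in 47.8% of all tested contigs and below in 13.2%. edgeR called 4 of the 10 gaining and 1 of the 10 losing contigs under TMM, against 0.773% higher and 1.48% lower of all tested. These contigs were ranked on the same 4 libraries, so the counts describe them and test nothing.

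The largest loss was in a contig of 2545 bases that had 21294 CPM at 12 h and 26588 at 24 h, against 37688 at 2 h and 56178 at 6 h. Its log2 fold change was -1.64 under TMM with an edgeR adjusted p of 0.0552, and -0.97 with total counts with an edgeR adjusted p of 0.115, so it did not pass. The largest gain was in a contig of 2665 bases with 3600 CPM at 12 h and 9727 at 24 h, against 882.7 at 2 h and 732.9 at 6 h. Its log2 fold change of 2.43 under TMM had an edgeR adjusted p of 0.0372, and that of 3.04 with total counts one of 0.0442. It had 234.2 CPM at 0 h, 8039 and 9201 CPM at 48 and 96 h and 5187, 1048 and 4236 CPM at 7, 14 and 30 d, and thus did not return to its 0 h level.

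Contigs with the most reads lost ground as a class. The 129 tested contigs whose mean over the 4 libraries reached 1000 CPM took 43.3% of all reads at 12 h and 45.3% at 24 h, against 55.9% at 2 h and 59.2% at 6 h. Their median log2 fold change was -1.04 with TMM and -0.41 with total counts, so it was below that of all contigs under both. Both later libraries lay below both earlier ones in 91 of the 129 with TMM and in 55 with total counts, and above them in 15 and 30. Over all tested contigs both lay below in 27.6% with TMM and 13.2% with total counts, and above in 27.5% and 47.8%. edgeR with TMM called 4 of the 129 higher (3.10%) and 7 lower (5.43%), against 0.773% and 1.48% of all tested contigs. The 4 higher contigs had 1512 to 3600 CPM at 12 h and 2712 to 9727 at 24 h, against 287.2 to 882.7 at 2 h and 291.2 to 732.9 at 6 h, and they were also called with total counts. The 7 lower contigs had 630.2 to 5193 CPM at 12 h and 638.3 to 2871 at 24 h, against 1768 to 11202 at 2 h and 1386 to 8797 at 6 h. None of the 7 was called with total counts, where their adjusted p in edgeR lay between 0.0674 and 0.107.

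Each class of tested contigs below 1000 CPM took up more of the reads. Shares are parts of a whole, so the smaller share of the top class is part of these gains. The 5184 contigs with a mean of 10 to 100 CPM held 17.6% at 12 h and 17.8% at 24 h, against 12.8% at 2 h and 11.3% at 6 h. Those of 1 to 10 CPM held 8.16% and 8.02%, against 6.02% and 4.89%, and those of 100 to 1000 CPM 28.0% and 26.4%, against 23.2% and 22.8%. Those under 1 CPM held 1.24% and 1.12%, against 0.925% and 0.782%. In the share of each of these classes both later libraries were above both earlier ones. The median contig of 100 to 1000 CPM nonetheless had a log2 fold change of -0.43 with TMM and 0.21 with total counts. Over all tested contigs these were -0.02 and 0.60. Called contigs were more frequent at higher abundance: 0.422% of the 16119 contigs under 1 CPM were called higher and 1.12% lower, against 2.08% and 2.12% of those of 10 to 100 CPM, with the background of 0.773% and 1.48% over all classes. The part of read depth in these frequencies was not tested.

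The contigs called higher were longer than those called lower. Their median length was 1678 bases, with quartiles of 724 and 2794, against 1260 bases (642 and 2173) for the contigs called lower and 1321 bases (582 and 2424) for all tested. Of the 4032 contigs of at least 4000 bases, 54 (1.34%) were called higher and 40 (0.992%) lower; of the 9053 under 500 bases, 54 (0.596%) and 118 (1.30%). The median log2 fold change under TMM was 0.25 for contigs of at least 4000 bases and 0.006 for those of 2000 to 4000. It was -0.13 for those of 1000 to 2000 and of 500 to 1000, and 0.02 for those under 500, so it did not rise steadily with length. A longer contig collects more reads at the same level per length, and the part of length in these counts was not tested.

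Contigs that appeared or disappeared were few. Over all 211674 contigs, 33 (0.0156%) had at least 10 reads at both 12 and 24 h and 0 at both 2 and 6 h, and 7 (0.00331%) had the reverse. A count of 0 allows up to 3 reads, or 0.145 CPM at 12 h and 0.125 CPM at 24 h, and 0.136 CPM at 2 h and 0.138 CPM at 6 h. Both groups were of low abundance: the 33 had a median of 0.787 CPM at 12-24 h and at most 3.05, and the 7 a median of 0.750 CPM at 2-6 h and at most 2.06. Of the 33, 27 were tested and 26 called higher, and all 7 were tested and called lower, against 0.773% higher and 1.48% lower of all tested contigs. The rule and the calls use the same 4 libraries, so this overlap is no separate support. At 0 h, which the rule did not use, 16 of the 33 had reads, as had 31 at 48 h and 25 at 30 d. Of the 7, 6 had reads at 0 h, 5 at 48 h and 6 at 30 d, so most of these contigs were seen outside the side that defined them. The numbers depend on the minimum: at 3 reads 1397 contigs appeared and 322 disappeared, and at 30 reads 1 and 0.

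The reads of the called contigs were followed through all 10 libraries. The 338 higher contigs made up 0.105% of a library at 0 h, 0.347% and 0.314% at 2 and 6 h, and 2.23% and 3.57% at 12 and 24 h. They then made up 2.81% and 1.95% at 48 and 96 h, and 1.31%, 0.444% and 1.09% at 7, 14 and 30 d. The 649 lower contigs made up 5.36% at 0 h, 4.62% and 4.19% at 2 and 6 h, 1.84% and 1.28% at 12 and 24 h, and 1.22%, 0.988%, 0.839%, 1.27% and 2.26% at the 5 later times. Wilson intervals (95%) of these shares were within 0.00927 percentage points on either side and cover counting error only. A few contigs made up most of these shares: without the 10 that held most of the change, the higher contigs had a mean of 0.952% at 12-24 h and 0.105% at 2-6 h, and the lower ones 0.358% and 1.43%. Most of the share of the lower contigs lay in those that lost their call with total counts: the 110 called under both scalings held 0.0505% at 12 h and 0.0493% at 24 h, against 0.383% at 2 h and 0.290% at 6 h.

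Libraries outside the comparison showed where the called contigs had started. For each contig the level at another time, in log2(CPM + 1) with TMM over the 10 libraries, was put on the side whose mean it was nearer to. At 0 h, 12 of the 338 higher contigs (3.55%) were nearer their 12-24 h mean, against 25.7% of all tested contigs with a positive fold change. In these backgrounds, here and below, the sign is that of the TMM fold change, also where levels were scaled by total counts. No background was made by the sign with total counts. The higher contigs thus started low: their median at 0 h was 0.73, against 1.10 at 2 h and 0.95 at 6 h. Of the 649 lower contigs, 191 (29.4%) were nearer the 12-24 h mean at 0 h, against 29.9% of all tested contigs with a negative fold change. Among the 110 called lower under both scalings the number was 52 (47.3%), and with total counts 55 (50.0%) against 38.3% of all tested contigs with a negative fold change. These 110 made up 0.280% of the reads at 0 h, less than at 2 and 6 h, whereas the 649 made up most at 0 h. Among the 17 lower contigs of the stricter rule 10 were nearer the 12-24 h mean at 0 h. Their median at 0 h was 5.28, above the 3.07 and 2.27 at 12 and 24 h and below the 6.90 and 6.35 at 2 and 6 h. Of the 33 higher contigs of the stricter rule none was nearer the later mean at 0 h.

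At later times the share near the 12-24 h mean became smaller. Of the higher contigs 223 (66.0%) were nearer the 12-24 h mean at 48 h and 143 (42.3%) at 96 h. At 7, 14 and 30 d these were 108 (32.0%), 70 (20.7%) and 40 (11.8%). For all tested contigs with a positive fold change the shares were 60.5%, 51.1%, 52.8%, 37.4% and 31.8%. Of the lower contigs 596 (91.8%) were nearer the 12-24 h mean at 48 h and 524 (80.7%) at 96 h, and 522 (80.4%), 397 (61.2%) and 286 of 648 (44.1%) at 7, 14 and 30 d, against 55.6%, 48.0%, 47.2%, 40.3% and 34.9% of those with a negative fold change. With total counts the higher contigs were nearer in 82.2% at 48 h and 59.8% at 7 d. All tested contigs with a positive fold change, its sign still that under TMM, had 83.1% and 81.1%. At 48 h the higher contigs were thus above this background with levels scaled by TMM and not with total counts. The lower contigs were nearer in 80.1% and 60.6% with total counts, against 58.2% and 53.4% of those with a negative fold change under TMM. At these times the lower contigs were above this background under both scalings of the levels. Under both scalings the share at 30 d was below that at 48 h in both groups, and so it was among all tested contigs of the same sign. With total counts it was 11.2% of the higher contigs at 30 d, against 35.2% of all with a positive fold change. For the lower contigs it was 40.3%, against 45.5% of those with a negative fold change. A call favours wide gaps between the sides, so these shares are set beside those of all contigs as a description.

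**Figure D4:**
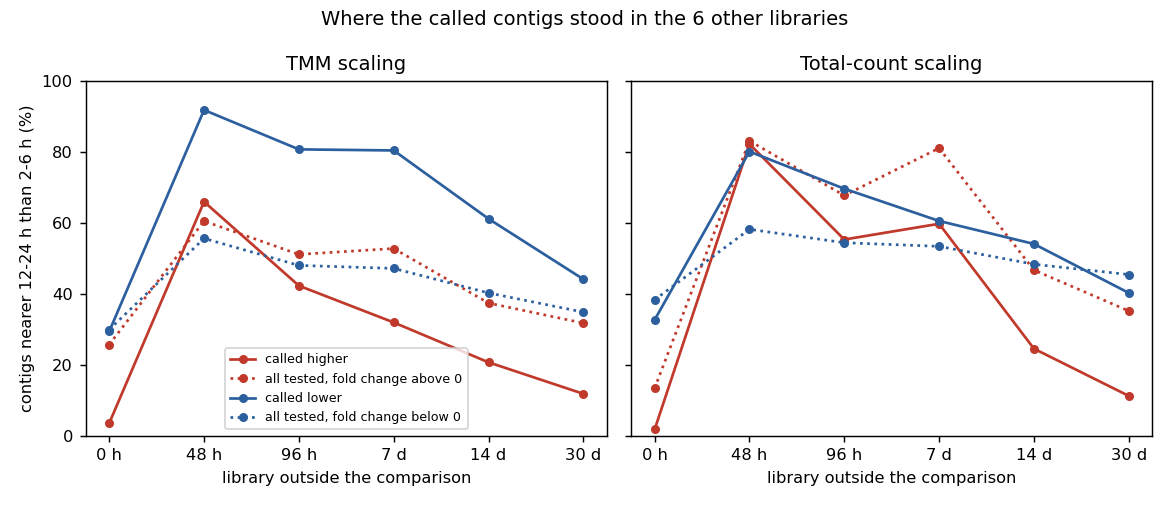
Percentage of contigs whose level at a time outside the comparison lay nearer their 12-24 h mean than their 2-6 h mean, under TMM (left panel) and total-count scaling (right panel). Solid lines are called contigs and dotted lines all tested contigs of the same sign, which is the sign under TMM in both panels. At 0 h the contigs called higher stood at 3.55% under TMM, and at 48 h those called lower at 91.8%.

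The 48 h and 0 h libraries gave a comparison that shared no library with the 4. Under TMM the 338 higher contigs were at a median of 1.51 above 0 h at 48 h on the log2(CPM + 1) scale, against 0.07 over all tested contigs. At least 4-fold above 0 h were 34.0% of them, against 1.66% of all tested, and 0.592% were 4-fold below, against 3.05%. The 649 lower contigs were at a median of -1.52, with 37.6% at least 4-fold below and 0.154% above. With total counts the medians were 2.22 for the higher and -0.90 for the lower contigs, against 0.59 over all tested contigs, so the higher group was above and the lower group below the whole under both scalings. At 30 d the medians against 0 h were 0.23 and -0.55 under TMM, against 0.01 over all tested.

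The highest library of the 10 under TMM was 24 h in 173 of the 338 higher contigs and 12 h in 112, followed by 48 h in 22. The lower contigs had their highest library at 0 h in 244 of 649, at 2 h in 188 and at 6 h in 144. Their lowest was 24 h in 208, 48 h in 125, 12 h in 88, 7 d in 78 and 96 h in 76. For many of these contigs the lowest value thus came after the first day. Since the called contigs were chosen on 4 of the 10 libraries, these counts describe them and test nothing.

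**Figure D5:**
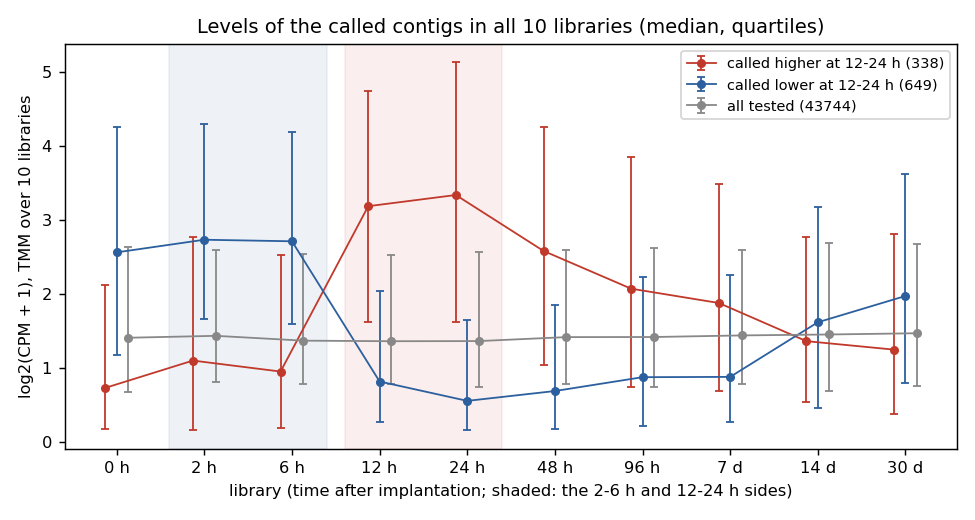
Median level with quartiles, in log2(CPM + 1) with TMM over the 10 libraries, of the 338 contigs called higher (red), the 649 called lower (blue) and all 43744 tested (grey), at each time; shading marks the sides compared, whose values made the calls. Outside them the higher contigs stood at a median of 2.58 at 48 h and 0.73 at 0 h, and the lower contigs at 0.69 and 2.56.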

How the data were processed

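RNA of pearl sac was sequenced in 1 library per time, from purified mRNA with random primers and PCR, per the labels' protocols. Each deposited file gives reads and RPKM per contig, per the file headers; the sources used here give no aligner, counting program or assembly. The deposited reads were treated like expected counts: they are whole numbers except 0.5, which stands where the deposited RPKM is 0 in every file and was read as 0. Contig lengths were computed from reads, RPKM and totals. At 30 d 166 contigs are unreadable and were left out at that time alone.

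The 12 and 24 h libraries were tested against the 2 and 6 h libraries with edgeR 4.0.16 (R 4.3.3): filterByExpr, full library totals, TMM, glmQLFit and glmQLFTest with 2 residual degrees of freedom, Benjamini-Hochberg adjustment over the 43744 contigs kept and a threshold of 0.05. P-values set the difference between the sides against the spread within them, which edgeR pools over contigs with 11.15 prior degrees of freedom. That spread holds change between neighbouring times, animals and library making together, and no replicates of the same time enter it. DESeq2 1.42.0, limma 3.58.1 (voom, and log2(RPKM + 1)), other scalings, filters and priors, and leaving out each library were tried. Reads are not independent molecules, since the protocols name no molecular identifiers, and intervals and floors cover counting error only. The comparison, rules and named contigs were chosen with earlier results of these data known. In each direction, among contigs called by edgeR that also met the 4-fold rule, the contig with the lowest p and the one with the highest mean CPM were named; others, given by length alone, were chosen after their values were seen.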

Additional observations from a re-analysis of the deposited data

How the results depend on the processing

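The calls depended strongly on the processing, and the cause was not tested. Against 338 contigs called higher and 649 lower by edgeR with TMM, total counts gave 819 and 110, DESeq2 1151 and 1799 (its adjusted p is missing for 9329 contigs), limma on log2(RPKM + 1) 3044 and 447, and no filter or a minimum mean of 5 CPM 0 and 0. Leaving out 1 library gave 0 to 866 higher and 0 to 1612 lower. Calls shared with those of TMM were 283 and 566 with DESeq2 and 209 and 446 with limma-voom. No contig called with TMM was called in the opposite direction in any of these fits. They use the same 4 libraries, in which the sides of these contigs lay wholly apart, so this tests nothing. The 4-fold rule gave 33 and 17 contigs. Total counts alone gave 164 higher and TMM alone 68 lower, a prior of 0.1 CPM gave 231 and 130, one of 5 CPM 8 and 5, and a 2-fold limit 761 and 261. Leaving out 1 library gave 96 to 247 higher and 32 to 134 lower. Contigs appearing and disappearing numbered 1397 and 322 at a minimum of 3 reads, and 1 and 0 at 30 reads. With total counts 1744 contigs were 4-fold apart between 12 and 6 h. Nearer their 12-24 h mean with total counts were 1.78%, 82.2%, 55.3% and 59.8% of the higher contigs at 0, 48 and 96 h and 7 d. Of all tested contigs with a positive fold change under TMM these were 13.4%, 83.1%, 67.7% and 81.1%. Of the lower contigs these were 80.1% and 69.6% at 48 and 96 h and 60.6%, 54.1% and 40.3% at 7, 14 and 30 d. All tested contigs with a negative fold change under TMM had 58.2%, 54.4%, 53.4%, 48.3% and 45.5%. Without the 10 contigs that held most of the change, the higher contigs made up 0.952% of reads at 12-24 h and 0.105% at 2-6 h, and the lower ones 0.358% and 1.43%, and the lower contigs called under both scalings held 0.0499% and 0.336%. No paired analysis was possible because the labels give no animal or batch number that links libraries across the sides. Each time had 1 library, so 2 h and 6 h, or 12 h and 24 h, cannot be told from replicate spread.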
